A study of Mus musculus with 185 samples.

Results

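Interferon-stimulated genes are genes whose transcription rises when a cell receives type I interferon or interferon gamma. A list of 39 of them was described here across single cells of the mouse heart, chosen by name as known interferon targets, and all 39 are among the 17171 genes of the table. Within the list, 15 genes that encode direct antiviral proteins or their close regulators (Ifit1, Ifit2, Ifit3, Isg15, Irf7, Oasl2, Oas1a, Oas2, Mx1, Mx2, Rsad2, Usp18, Rtp4, Ifi44 and Xaf1) were counted together in each cell and are called the antiviral genes.

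The study followed heart fibroblasts with tamoxifen-inducible lineage tracers after myocardial infarction and asked which cells form the scar. Tracer mice carried a MerCreMer recombinase in the Postn locus (Postn MerCreMer/+), which marks cells that turn on periostin, or in the Tcf21 locus (Tcf21 MerCreMer/+), which marks resident fibroblasts, together with the R26-eGFP reporter. Cells negative for the endothelial surface protein CD31 and the leukocyte surface protein CD45 were sorted, captured singly on the Fluidigm C1 system and scored for eGFP under the microscope. All cells came from C57BL/6 mice (backcross N=6) of about 5 months.

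The cells fell into 9 label classes in 4 captures. From infarcted hearts, where the left coronary artery had been tied, there were 27 Postn-traced cells and 24 untraced cells without Postn (Postn-negative) from the Postn tracer capture, 44 Tcf21-traced cells from the Tcf21 tracer capture, and 29 untraced cells taken from the scar in the scar capture. Another 28 infarct cells were untraced but positive for Postn, of which 19 were in the Tcf21 tracer capture, 6 in the Postn tracer capture and 3 in the scar capture. Uninjured hearts gave 33 cells in a capture of their own: 17 resident Tcf21-traced cells, 12 resident CD31- CD45- cells, 3 resident Tcf21-positive cells with Postn and 1 resident CD31- CD45- cell with Postn. The labels do not say which mouse a cell came from. Every class was therefore taken as a single sample without any test, and an SD is the spread between its cells. Injury and capture cannot be told apart between infarcted and uninjured hearts, because the uninjured cells shared 1 capture with no infarct cell in it.

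Interferons are secreted when cells sense foreign or misplaced nucleic acid. Type I interferons signal through the Ifnar1 and Ifnar2 receptor chains to a complex with Stat2 and Irf9 that binds the interferon-stimulated response element, while interferon gamma signals through Ifngr1 and Ifngr2 and acts at the gamma-activated site. In the infarcted heart, interferon signalling is best known in infiltrating macrophages, which sense DNA released by dying cells.

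Values are the deposited log2 of TPM (transcript abundance scaled to a fixed total per cell) plus 1, written log2 (TPM+1), and a gene was called detected in a cell above 5 TPM. The number of genes detected per cell stands in for depth, which is not known for each cell, and ran from 141 to 5419 with a median of 2770. It differed between captures, with medians of 2258 in the uninjured, 2715 in the Postn tracer, 3299 in the Tcf21 tracer and 3198.5 in the scar capture. In 7 cells, 6 of them untraced scar cells and 1 an untraced Postn-positive cell of the scar capture, fewer than 50% of the median number for the capture was detected. A value listed at 0 may be a failed measurement, since Gapdh was listed at 0 in 9 cells and B2m in 4.

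The labels call every cell a fibroblast. At least 3 of 6 fibroblast markers, led by Dcn, were detected in 180 cells, and the median cell held 5. No cell held 3 of the 5 endothelial markers listed, and none of the myeloid genes Ptprc, Cd68, Lyz2, Csf1r and Itgam was detected in 162 cells. Resident CD31- CD45- cell 1 was the only cell with at least 3 of these 5 genes, and held 4, with Lyz2 at 12.34, Cd68 at 11.72 and Ptprc at 9.25, and detected Dcn but no other fibroblast marker. Member comparisons that include that cell are given with and without it, and pathway comparisons include it.

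Most interferon-stimulated genes were detected in a minority of cells. Each of the 39 was detected in at least 1 cell, 5 of them in more than 50% of cells and 11 in under 10%, with a median of 29 cells per member. Across the 15733 genes detected in at least 1 cell, the median was 18 cells, 10.5% of genes were detected in more than 50% of cells and 50.1% in under 10%. The members as a group were thus detected somewhat more widely than the median gene. A cell held between 0 and 34 members, with a median of 8.

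**Figure D1:**
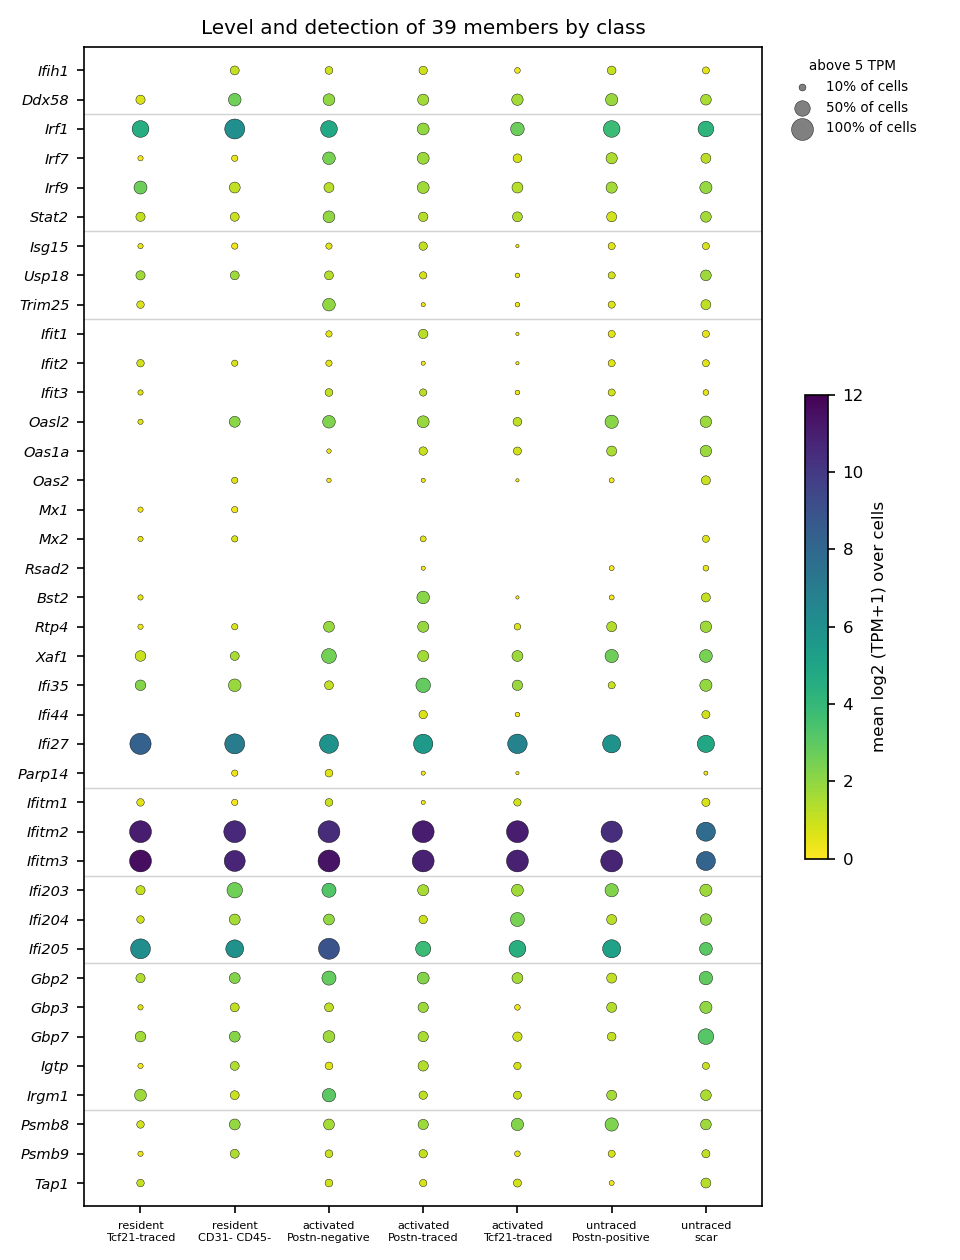
Mean level (colour, log2 TPM+1) and share of cells above 5 TPM (dot size) of each of the 39 members in 7 class and capture combinations, with lines between roles. Ifitm2, Ifitm3, Ifi27, Ifi205 and Irf1 were detected in more than 50% of all cells and most other members in a minority of each class.

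The 5 widely detected members were Ifitm2 (177 cells), Ifitm3 (176 cells), Ifi27 (139 cells), Ifi205 (114 cells) and Irf1 (94 cells). None of them belongs to the antiviral genes, which were detected in at most 53 cells (Xaf1) and in as few as 2 (Mx1). This split follows in part from the choice of the antiviral list, which left out Ifi27 and the IFITM genes. The number of members per cell rose with the number of genes detected, with a Pearson r of 0.41 over all cells that share 4 captures, and r differed by capture: -0.20 in the uninjured, 0.25 in the Postn tracer, 0.40 in the Tcf21 tracer and 0.72 in the scar capture. The part of depth in the counts below was not tested.

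**Figure D2:**
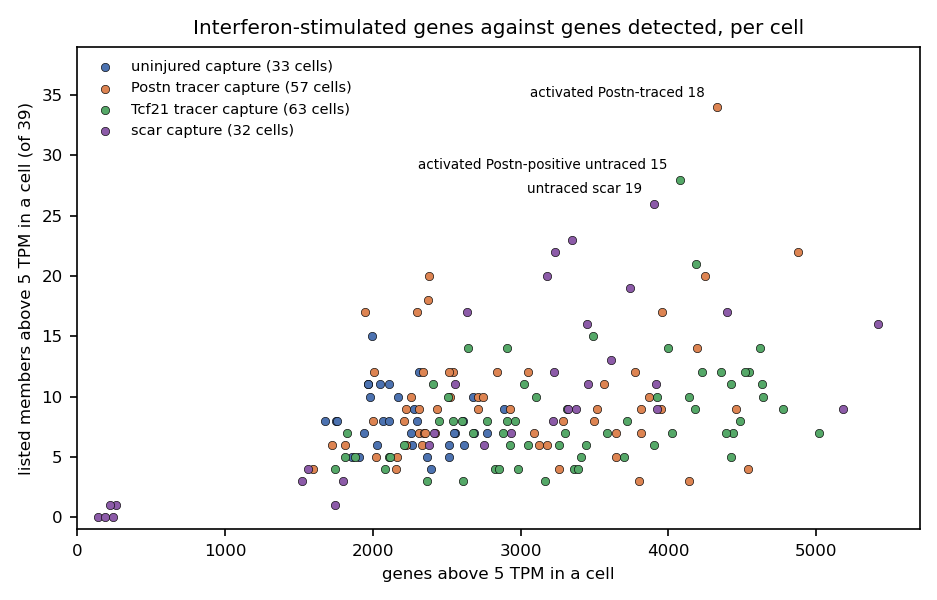
Members above 5 TPM in each cell (y axis, of 39) against all genes above 5 TPM in that cell (x axis), each point 1 cell coloured by capture. Postn-traced cell 18, untraced Postn-positive cell 15 and scar cell 19 held 34, 28 and 26 members, more than any other cell.

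Many cells held no antiviral gene and a few held many. None of the 15 was detected in 54 of the infarct cells and in 17 of the 33 cells of uninjured hearts, and the median cell of the infarcted hearts held 1. At least 5 of the 15 were detected in 19 cells, which is 10.3% of all cells (exact 95% interval 6.30 to 15.6, for counting error only, as for all intervals here). Of these, 18 were infarct cells (11.8%, interval 7.17 to 18.1) and 1 was from an uninjured heart (3.03%, interval 0.0767 to 15.8). The intervals of the infarcted and uninjured hearts overlap, which is not a test of a difference. The infarct cells also had more genes detected, with a median of 3071.5 against 2258.

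Among the classes, cells with at least 5 antiviral genes were most frequent in the untraced scar cells, at 7 of 29 (24.1%, interval 10.3 to 43.5). The untraced Postn-positive cells of the Tcf21 tracer capture held 4 of 19 (21.1%, interval 6.05 to 45.6) and the Postn-traced cells 5 of 27 (18.5%, interval 6.30 to 38.1). Lower shares were found in the resident Tcf21-traced cells, 1 of 17 (5.88%, interval 0.149 to 28.7), the Postn-negative cells, 1 of 24 (4.17%, interval 0.105 to 21.1), and the Tcf21-traced cells, 1 of 44 (2.27%, interval 0.0575 to 12.02). No such cell was found among the 12 resident CD31- CD45- cells, which allows a share of up to 26.5%, and the untraced Postn-positive cells of the Postn tracer and scar captures held none in 6 and 3 cells. The intervals of all these classes overlap, which is not a test between classes because cells are not replicates of a class. Genes detected per cell also differed by class. Medians were 3177 in the scar, 3361 in the untraced Postn-positive cells of the Tcf21 tracer capture and 3643 in the Postn-traced cells. They were 2264 in the resident Tcf21-traced, 2342 in the Postn-negative, 3134 in the Tcf21-traced and 2091.5 in the resident CD31- CD45- cells. The part of depth in these shares was not tested. Markers of other cell types were detected in some of the 7 scar cells: scar cell 11 held the pericyte markers Rgs5, Kcnj8, Abcc9 and Pdgfrb with Myh11, Acta2 and Tagln, and scar cell 16 held Cd68, Csf1r and Cd79a beside 5 of 6 fibroblast markers, with Lyz2, Itgam and Nkg7 at 0. Scar cell 5 held the endothelial marker Kdr and the smooth muscle marker Cnn1, with the other listed markers of these types at 0. Scar cell 9 held the cardiomyocyte marker Tnni3, with the other listed cardiomyocyte markers at 0, and Acta2, Tagln and Pdgfrb. The epicardial marker Wt1 was detected in scar cells 5, 11, 13, 16 and 19, which are 5 of these 7, while 23 of the 29 scar cells detected no epicardial marker. Of the other epicardial markers, Lrrn4 in scar cell 16 was the only one detected in these cells. Their part in the counts was not tested.

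**Figure D3:**
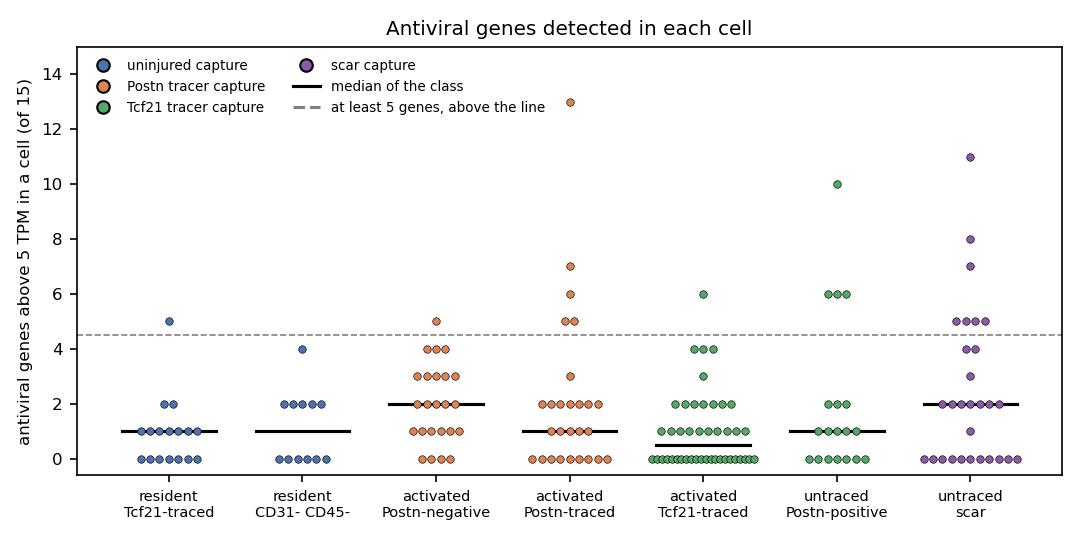
Antiviral genes above 5 TPM in each cell (y axis, of 15) by class, each point 1 cell coloured by capture and the bar the class median; points above the dashed line hold at least 5. Medians of the classes with more than 5 cells lie between 0.5 and 2, while single cells of 3 infarct classes reach 13, 11 and 10.

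The class medians were close to each other and the tails were not. The median cell held 2 antiviral genes among the Postn-negative and the scar cells, 1 among the Postn-traced, resident Tcf21-traced and resident CD31- CD45- cells, and 0.5 among the Tcf21-traced cells, of which 22 held none. The highest cells held 13 in the Postn-traced, 11 in the scar, 10 in the untraced Postn-positive and 6 in the Tcf21-traced class, against 5 in the Postn-negative and the resident Tcf21-traced cells and 4 in the resident CD31- CD45- cells. The Postn-negative class thus spread low counts over most of its cells, with 4 cells at 0, while the scar class had 11 cells at 0 beside 7 with at least 5.

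Postn-traced cell 18 held 13 of the 15 antiviral genes and 34 of the 39 members. Its highest antiviral values were Ifit1 at 11.11 and Ifit3 at 10.72, which encode RNA-binding proteins that block translation of viral messages, and Rtp4 at 9.67. Usp18, the protease that removes Isg15 from proteins and damps receptor signalling, was at 8.69, Xaf1 at 8.54, Oas2 at 8.32, Isg15 itself, a ubiquitin-like modifier, at 8.27, and Oas1a at 7.53. Lower but detected were Ifit2 at 6.91, Mx2 at 5.87, Rsad2 at 5.70, Oasl2 at 5.59 and Irf7 at 5.38. Only Ifi44 and Mx1 among the antiviral genes were listed at 0 in it.

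The same cell was high in interferon-inducible members outside the antiviral set. It held Irgm1 at 9.72, Gbp3 at 9.47, Ifi205 at 9.11, Gbp7 at 7.23 and Bst2 at 7.23, while Ifitm1 and Tap1 were at 0 and Irf1 was at 1.38, under the minimum. From the pathway genes outside the list it held Ifi47, another inducible GTPase, at 9.38, where the other Postn-traced cells reached 2.94, and Irf3, the factor that turns on interferon genes, at 7.95, where the others reached 5.31. All 6 fibroblast markers were detected in it, and all listed endothelial, myeloid, lymphocyte and cardiomyocyte markers were at 0, while Acta2, Tagln and Pdgfrb were detected.

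Scar cell 19 held 11 antiviral genes and 26 members. Usp18 was at 8.67, Irf7 at 7.75, Xaf1 at 7.74, Ifit3 at 7.67, Ifit2 at 7.53, Oas1a at 7.46, Oasl2 at 7.43, Ifi44 at 6.94, Rsad2 at 6.07, Rtp4 at 5.44 and Isg15 at 5.26, while Ifit1, Oas2, Mx1 and Mx2 were at 0. It detected 5 of the 6 fibroblast markers, all but Tcf21, and Kcnj8, Pdgfrb, Acta2 and Wt1 besides, and no listed endothelial or myeloid marker. Its profile therefore lacked the gene that led in Postn-traced cell 18, Ifit1.

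Untraced Postn-positive cell 15 held 10 antiviral genes and 28 members. Oas1a was at 9.21, Xaf1 at 8.57, Ifit3 at 7.40, Usp18 at 6.99, Ifit2 at 6.34, Irf7 at 6.22, Oasl2 at 5.97, Isg15 at 5.50, Rtp4 at 4.29 and Rsad2 at 3.20, and Ifit1, Oas2, Mx1 and Mx2 were at 0. B2m at 12.16, H2-K1 at 10.37 and Zbp1, a sensor of Z-form nucleic acid, at 7.76 were each the highest of the 19 cells of its class and capture. It detected 5 of the 6 fibroblast markers, all but Tcf21. It also held Tek at 6.78 and Cd79a at 6.09, an endothelial and a lymphocyte marker, each the highest of those 19 cells, and the smooth muscle markers Acta2, Tagln and Smtn with Pdgfrb, while Pecam1, Kdr, Tie1, Emcn and Nkg7 were at 0. The part of these markers in its counts was not tested.

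These 3 cells had many genes detected, 4332, 3905 and 4076. In the Postn tracer capture, 7 other cells lay within 10% of the gene number of Postn-traced cell 18, and they held between 0 and 7 antiviral genes with a median of 2. Untraced Postn-positive cell 15 had 15 such neighbours, which held between 0 and 6 with a median of 1, and scar cell 19 had 4, which held between 2 and 8 with a median of 3.5. In the scar capture antiviral genes rose with genes detected (r 0.58 over its cells), and the part of depth in these 3 cells was not tested.

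The remaining 16 cells held between 5 and 8 antiviral genes. Scar cell 5 held 8, scar cell 4 and Postn-traced cell 21 held 7, and Tcf21-traced cell 33, Postn-traced cell 17 and untraced Postn-positive cells 17, 23 and 28 held 6. Scar cells 9, 11, 13 and 16, Postn-traced cells 9 and 13, Postn-negative cell 23 and resident Tcf21-traced cell 11 held 5. The genes differed from cell to cell: Postn-negative cell 23 held Ifit3 at 11.49, Oasl2 at 9.50, Xaf1 at 7.59, Rtp4 at 7.24 and Irf7 at 5.90, whereas resident Tcf21-traced cell 11 held Usp18 at 8.69, Ifit3 at 8.04, Mx2 at 7.51, Ifit2 at 7.42 and Mx1 at 3.16. Resident Tcf21-traced cell 11 detected 5 of the 6 fibroblast markers. It also held the myeloid marker Csf1r, the smooth muscle marker Smtn and the endothelial marker Tek, with the other listed markers of these types at 0.

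**Figure D4:**
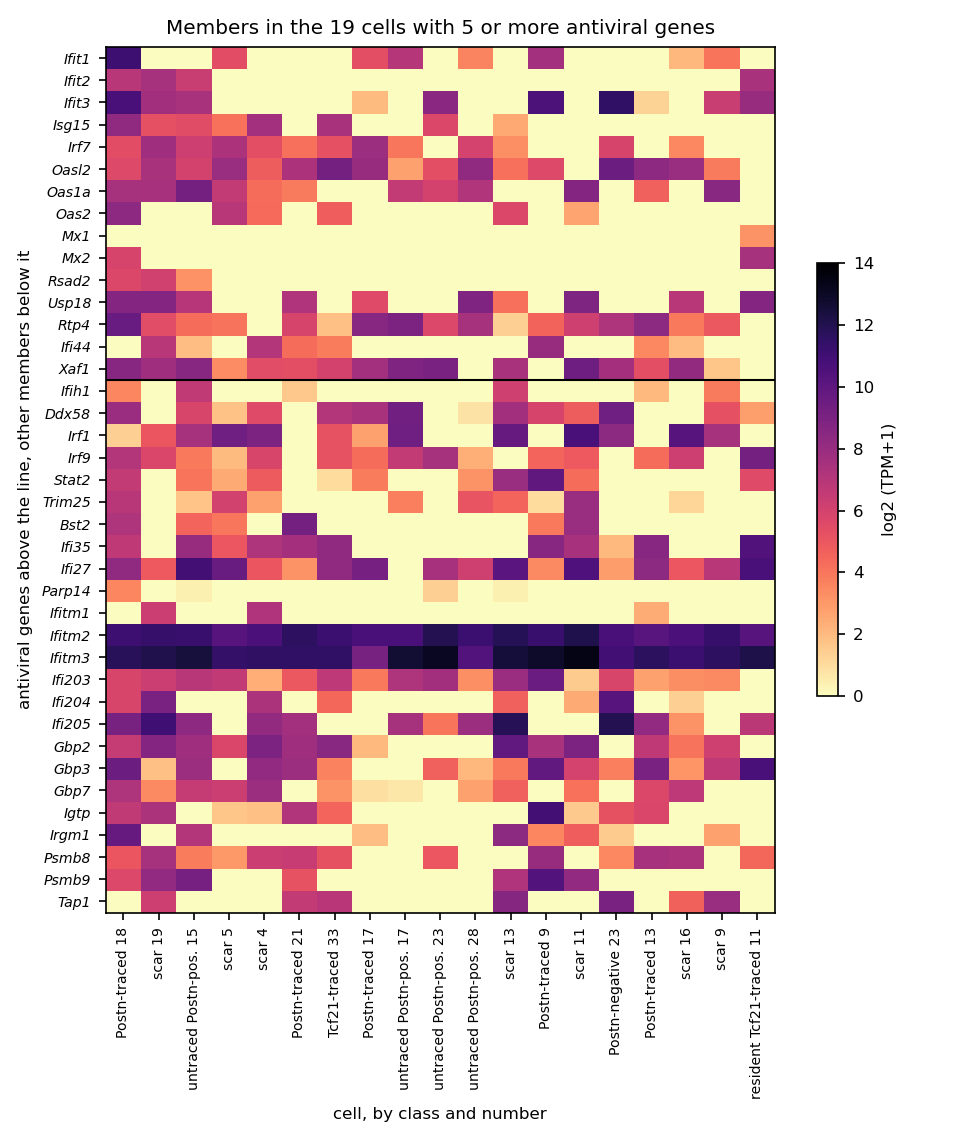
Level (colour, log2 TPM+1) of the 39 members in each of the 19 cells with at least 5 antiviral genes, antiviral genes above the line and other members below it. Oasl2, Xaf1 and Rtp4 recur across the cells, Rsad2 appears in 3 and Mx1 in 1, and Ifitm2 and Ifitm3 are high in all of them.

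Postn-traced cell 9 had another pattern. It was the only cell in which Ifng, the gene for interferon gamma, was detected, at 9.95, and it held the highest value of its capture for Igtp (10.90), Psmb9 (10.34), Stat2 (9.90), Gbp3 (9.86) and Ifi44 (7.99). Ifit3 was at 10.61 and Ifit1 at 7.65, while Isg15, Usp18, Irf7, Xaf1 and Irf1 were at 0. It detected Col1a1, Col1a2, Col3a1 and Dcn but not Pdgfra or Tcf21, and the listed myeloid markers and the lymphocyte markers Cd79a and Nkg7 were at 0. It also held the smooth muscle marker Myh11 and the pericyte marker Pdgfrb, with the other listed markers of these types at 0. The T cell genes Cd3e, Cd3g and Trac were not analysed here. With 2378 genes detected it was below the median of its capture.

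A small number of cells held most of the antiviral transcripts. Of the TPM of the 15 genes summed over all infarct cells, Postn-traced cell 18 held 12.9%, Postn-negative cell 23 held 7.82%, Postn-traced cell 9 held 4.07% and scar cell 19 held 3.58%, and the 12 highest cells together held 50.4%. For Ifit1, Postn-traced cell 18 alone held 67.01% of the summed level. The 16 highest cells, the top 10% of the infarct cells, held a median of 93.8% of a member's summed level, from 22.1% for Ifitm2 to 100% for the rarest. A gene detected in 16 cells or fewer must come close to 100% by this measure. Among the 28 members detected in at least 10% of infarct cells the median was 85.9%, and over all 8005 genes detected that widely it was 82.2%. In the uninjured hearts, where the top 10% were 4 cells, the same medians were 91.7% for 19 members and 88.3% for 5934 genes. Concentration in a few cells was thus close to that of other genes in these cells, and the joint presence of many antiviral genes in Postn-traced cell 18 is a separate measurement.

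A response element core was more frequent near the starts of the members than of all genes. The members were chosen as known interferon targets, so a higher share follows in part from that choice. It says nothing about the cells studied here. The core of the interferon-stimulated response element was searched as GAAANNGAAA, or TTTCNNTTTC on the other strand, in RefSeq promoter windows of 300 bases (250 before the start of the gene and 50 after it, mouse build GRCm38.p6). A window was given for 31 of the 39 members, and the core occurred in 18 of them (58.1%), against 1079 of 27025 genes (3.99%) over all windows of that length. The core of the gamma-activated site, TTCNNNGAA, which reads the same on both strands, occurred in 9 of 31 members (29.03%) and in 9.55% of all genes. Of the members, 5 had both, and 2 of the gamma-activated matches overlapped a response element match. Oas2, Mx1, Mx2, Ifi27, Ifi204, Usp18, Rtp4 and Parp14 had no window and are named only.

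The windows of the 5 antiviral genes with a match and of Gbp3 and Ifi205, which differed between classes, are printed 5' to 3' along the gene, with the response element cores in capitals. They lie at chr4:156200769-156201068 (Isg15, minus strand), chr19:34640639-34640938 (Ifit1, plus), chr19:34583279-34583578 (Ifit3, plus), chr5:120907476-120907775 (Oas1a, minus), chr12:26456403-26456702 (Rsad2, minus), chr3:142559794-142560093 (Gbp3, plus) and chr1:174031706-174032005 (Ifi205, minus).
Isg15: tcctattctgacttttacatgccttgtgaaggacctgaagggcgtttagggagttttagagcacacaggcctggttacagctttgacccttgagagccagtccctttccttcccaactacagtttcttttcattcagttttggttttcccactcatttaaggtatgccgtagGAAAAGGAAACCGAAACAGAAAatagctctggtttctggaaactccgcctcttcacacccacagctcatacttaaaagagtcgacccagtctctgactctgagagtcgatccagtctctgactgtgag
Ifit1: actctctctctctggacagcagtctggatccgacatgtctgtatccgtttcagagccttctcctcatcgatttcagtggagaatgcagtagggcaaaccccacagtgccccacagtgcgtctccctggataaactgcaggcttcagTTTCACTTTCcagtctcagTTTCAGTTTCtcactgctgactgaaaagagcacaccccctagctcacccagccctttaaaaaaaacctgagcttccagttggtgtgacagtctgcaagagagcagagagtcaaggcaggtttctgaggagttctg
Ifit3: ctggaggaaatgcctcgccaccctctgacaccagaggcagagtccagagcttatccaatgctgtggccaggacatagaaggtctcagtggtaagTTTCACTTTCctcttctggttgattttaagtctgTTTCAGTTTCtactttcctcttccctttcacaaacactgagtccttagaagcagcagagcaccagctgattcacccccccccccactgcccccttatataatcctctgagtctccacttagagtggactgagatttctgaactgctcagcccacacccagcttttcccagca
Oas1a: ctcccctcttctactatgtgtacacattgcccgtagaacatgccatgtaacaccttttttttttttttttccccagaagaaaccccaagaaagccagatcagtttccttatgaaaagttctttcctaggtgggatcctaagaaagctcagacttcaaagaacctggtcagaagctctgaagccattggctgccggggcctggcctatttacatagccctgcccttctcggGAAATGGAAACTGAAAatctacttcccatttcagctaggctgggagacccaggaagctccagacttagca
Rsad2: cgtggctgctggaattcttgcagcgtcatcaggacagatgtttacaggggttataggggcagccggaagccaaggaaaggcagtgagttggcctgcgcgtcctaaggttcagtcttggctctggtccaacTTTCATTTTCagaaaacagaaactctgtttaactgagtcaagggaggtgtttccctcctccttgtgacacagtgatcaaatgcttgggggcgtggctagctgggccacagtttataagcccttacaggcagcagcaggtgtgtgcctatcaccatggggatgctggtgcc
Gbp3: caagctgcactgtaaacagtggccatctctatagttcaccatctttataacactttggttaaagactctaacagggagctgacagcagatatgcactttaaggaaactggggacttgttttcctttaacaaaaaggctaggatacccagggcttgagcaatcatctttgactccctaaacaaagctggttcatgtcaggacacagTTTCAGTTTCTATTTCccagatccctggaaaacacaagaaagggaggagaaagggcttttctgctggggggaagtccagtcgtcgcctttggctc
Ifi205: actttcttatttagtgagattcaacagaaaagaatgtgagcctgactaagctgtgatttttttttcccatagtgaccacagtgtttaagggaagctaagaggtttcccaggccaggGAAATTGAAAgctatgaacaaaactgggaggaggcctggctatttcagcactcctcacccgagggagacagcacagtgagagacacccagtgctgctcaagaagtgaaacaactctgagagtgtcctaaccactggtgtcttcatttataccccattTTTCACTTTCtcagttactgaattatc

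Isg15 had 3 overlapping or adjoining matches in 1 run, Oas1a and Gbp3 had 2 that overlap, and Ifit1, Ifit3 and Ifi205 had 2 apart from each other. Bst2, Ifitm3 and Irgm1 also had 2, and Rsad2, Ddx58, Ifih1, Stat2, Ifitm2, Ifi203, Gbp2, Gbp7 and Igtp had 1. Of the 28 matches, 23 ended before the start of the gene. No match was found in the windows of Irf7, Oasl2, Xaf1, Ifi44 and Ifit2 among the antiviral genes, so 5 of the 10 with a window had the core, and 13 of 21 other members. Whether the core goes with how widely a member is detected was not tested. A match is a stretch of letters and was not tested as a binding site.

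Many members also lie next to each other in the genome. Ifit2, Ifit3 and Ifit1 lie in that order within chr19:34550550-34650009, Gbp7, Gbp3 and Gbp2 within chr3:142530336-142638008, Ifi204, Ifi203 and Ifi205 within chr1:173747293-174031755, Psmb9, Tap1 and Psmb8 within chr17:34182030-34201454, and Ifitm2, Ifitm1 and Ifitm3 within chr7:140954837-141010744. Detection of neighbours in the same infarct cells was partial. Ifit1 was detected in 14 and Ifit3 in 12, with 4 cells in common (28.6% and 33.3% of each), where the product of their shares alone gives 1.11. Tap1 was detected in 19 and Psmb9 in 17, whose promoter windows overlap, with 5 in common (26.3% and 29.4%) against 2.12 from the shares. Gbp2 in 46 and Gbp7 in 39 cells had 21 in common (45.7% and 53.8%) against 11.8. Ifit2 and Ifit3 had 3 against 0.71, Gbp3 and Gbp7 had 14 against 6.67, and Gbp2 and Gbp3 had 15 against 7.87. Other pairs lay nearer to their shares: Ifit1 and Ifit2 had 1 cell in common against 0.83, Psmb8 and Psmb9 had 6 against 4.81, and Ifi203 and Ifi204 had 17 against 13.9. The part of depth in these overlaps was not tested. Ifitm2 and Ifitm3, each in 144 infarct cells, shared 141, against 136 from the shares.

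By role, the cytosolic RNA sensors Ifih1 and Ddx58, which recognise double-stranded RNA, came first in the pathway and were modest. Ddx58 was detected in 50 cells and Ifih1 in 20, and class means ran for Ddx58 from 0.70 in the resident Tcf21-traced to 2.60 in the resident CD31- CD45- cells, with medians of 0.00 in both. Among the 18 infarct cells with Ifih1 and the 42 with Ddx58, 7 held both, against 4.97 from their shares.

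Of the transcription factors, Irf1, which is itself induced by interferon gamma and by inflammatory signals, was the widest, in 71 infarct cells (46.7%, interval 38.6 to 54.97) and 23 uninjured cells (69.7%, interval 51.3 to 84.4). Its lowest value was 0.00 in each main class, and its median was 7.02 in the resident CD31- CD45-, 5.73 in the Postn-negative, 5.01 in the resident Tcf21-traced, 3.98 in the scar, 0.57 in the Tcf21-traced and 0.00 in the Postn-traced cells. The highest values, between 10.11 and 11.41, were alike in all 6 classes, so the classes overlapped fully and differed in how many cells held it. Irf7, the amplifier of type I interferon transcription, was detected in 35 infarct cells (23.03%, interval 16.6 to 30.5) and 2 uninjured cells (6.06%, interval 0.743 to 20.2). Irf9 and Stat2, which act together in the type I complex, were detected in 39 and 35 infarct cells and together in 15, against 8.98 from their shares.

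Isg15, the protein modifier, was detected in 14 infarct and 2 uninjured cells, Usp18, its protease, in 20 and 5, and Trim25, a ligase that can also add Isg15, in 20 and 2. Isg15 and Usp18 were found together in 4 infarct cells, against 1.84 from their shares. The highest Usp18 value of all cells, 10.90, was in resident CD31- CD45- cell 1, which held the myeloid markers, and so was the highest Mx1 value, 3.87.

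Of the 18 members detected in 4 to 24 infarct cells, 4 were detected in no uninjured cell (22.2%). Of the 5800 genes in that range, 1685 were likewise not detected there (29.1%). The range runs from the lowest to the highest infarct count of those 4 members, so it holds them by construction. Within it, absence from the uninjured cells was no more frequent among the members. Oas1a, an enzyme that makes the 2-5A signal for RNA decay, was detected in 24 infarct cells (15.8%, interval 10.4 to 22.6) and none of the 33 uninjured cells, which allows up to 10.6%. Ifit1 was detected in 14 infarct cells (9.21%, interval 5.13 to 14.97), Ifi44 in 10 (6.58%, interval 3.20 to 11.8) and Rsad2, the radical SAM enzyme viperin, in 4, and none of them in an uninjured cell. For all 4 genes the infarct interval overlaps the range up to 10.6% that 0 of 33 cells allows, and a difference between hearts was not tested. These ranges cover counting error in detection only. Since a 0 may be a failed measurement, they do not limit the share of cells that express a gene. Rsad2 was detected in Postn-traced cell 18, untraced Postn-positive cell 15 and scar cells 3 and 19 alone.

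The Mx genes, dynamin-like GTPases that trap viral capsids, were rare. Mx1 passed the minimum in no infarct cell and in 2 uninjured cells at 3.87 and 3.16, and Mx2 in 5 infarct and 2 uninjured cells. C57BL/6 mice are known to carry a deletion in Mx1. Parp14, a mono-ADP-ribosyltransferase, was detected in 7 infarct cells and 1 uninjured cell, and Ifit2 in 9 and 3.

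Ifi27 stood apart from the other effectors by its width. It was detected in 110 infarct and 29 uninjured cells, with medians of 9.37 in the resident Tcf21-traced, 9.28 in the resident CD31- CD45-, 8.06 in the Tcf21-traced, 7.51 in the Postn-negative, 6.20 in the Postn-traced and 5.08 in the scar cells, and a lowest value of 0.00 in each. Bst2, which tethers budding virus to the cell surface, was detected in 9 of 27 Postn-traced cells, up to 9.23, and was listed at 0 in all 24 Postn-negative and all 12 resident CD31- CD45- cells. Among the Tcf21-traced cells it was detected in 1 of 44, at 3.06. The classes overlap at 0, and 9 of the 19 cells with Bst2 were Postn-traced.

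Of the IFITM genes, membrane proteins that hinder viral fusion, Ifitm2 and Ifitm3 were the highest members. Ifitm2 ran in the Tcf21-traced cells from 5.29 through a median of 11.20 to 12.38, in the Postn-traced cells from 9.31 through 11.01 to 12.26 and in the resident Tcf21-traced cells from 8.83 through 11.13 to 12.92. Ifitm3 ran in the same classes from 5.69 through 11.16 to 12.89, from 8.43 through 10.85 to 12.87 and from 8.78 through 11.66 to 13.05. Both were detected in every cell of these 3 classes, so they were present in cells without any antiviral gene. Ifitm1, the third gene of the cluster, was detected in 14 infarct and 3 uninjured cells. Reads that fit more than 1 IFITM gene were divided by the authors' quantification, and the split between Ifitm1, Ifitm2 and Ifitm3 is uncertain, as it is within the Ifit, Oas, Gbp and p200 families.

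The p200 genes encode nuclear proteins of the family that senses DNA. Ifi205 ran from 0.00 through a median of 9.76 to 12.35 in the Postn-negative cells and from 0.00 through 2.30 to 10.15 in the Postn-traced cells. Its medians elsewhere were 8.004 in the resident CD31- CD45-, 6.80 in the resident Tcf21-traced, 6.06 in the untraced Postn-positive cells of the Tcf21 tracer capture, 4.33 in the Tcf21-traced and 0.00 in the scar cells. Ifi203 was detected in 49 infarct cells and Ifi204 in 43, and 35 and 30 of these also held Ifi205 (71.4% of the cells with Ifi203 and 69.8% of those with Ifi204), where 59.2% of all infarct cells held it.

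The interferon-inducible GTPases, which attack the membranes around intracellular pathogens, were led by Gbp2 with 46 infarct cells, Gbp7 with 39 and Irgm1 with 34, followed by Gbp3 with 26 and Igtp with 17. Gbp7 ran from 0.00 through a median of 2.78 to 10.23 in the scar cells, where 15 of 29 held it, and its median was 0.00 in the Tcf21-traced cells, where 8 of 44 held it. Of the antigen processing genes, Psmb8 and Psmb9, catalytic subunits of the immunoproteasome, were detected in 43 and 17 infarct cells, and Tap1, a subunit of the transporter that supplies peptides to class I molecules, in 19. Psmb8 and Psmb9 were found together in 6 infarct cells, against 4.81 from their shares.

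Differences between classes were taken as differences of class means of log2 (TPM+1), and a gene past 1 log2 unit was counted as higher or lower. When cells were centred on the median of their own detected genes, the median difference over all genes moved from 0.19 to 0.71 between Postn-traced and Postn-negative cells, from 0.16 to 0.61 between activated and resident Tcf21-traced cells, from -0.12 to -0.95 between scar and Tcf21-traced cells and from 0.00 to -0.26 between Tcf21-traced and untraced Postn-positive cells. Members are therefore also given relative to the median of all genes, which centring does not move. Many of all genes are rarely detected. Over the genes detected in at least 10% of cells, the shares past 1 in either direction were 36.3% for Postn-traced against Postn-negative, 15.7% for Tcf21-traced against untraced Postn-positive, 28.4% for the resident classes, 38.1% for activated against resident Tcf21-traced, 28.3% for scar against Tcf21-traced and 28.99% for Postn-negative against resident cells, above the shares over all genes given below.

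Postn-traced and Postn-negative cells of the same capture compare traced with untraced cells within the infarct. Of the 39 members, 2 were higher and 6 lower in Postn-traced cells, where 16.7% of all genes were higher, 2.35% lower and 19.1% past 1 in either direction. The median member differed by -0.20 and the median gene by 0.19, so the median member lay 0.38 below all genes, and 14 of 39 members lay above the median gene. Set against genes detected in at least 10% of cells, the median member lay 0.77 below and 7 of 39 above the median gene. Centred on their own genes, 9 members were higher and 5 lower, where 34.3% of all genes passed 1 in either direction, so the member count was near the share of all genes. The median member was then at 0.33, and its distance from the median gene cannot change with centring.

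Ifi205 had the largest difference, with a mean of 3.83 (SD 3.81) in 27 Postn-traced and 8.93 (SD 3.30) in 24 Postn-negative cells, a difference of -5.10. Irf1 followed at 1.96 (SD 2.88) against 4.80 (SD 4.24), -2.85. All 3 p200 genes were lower, Ifi203 at 1.56 against 3.27 (-1.71) and Ifi204 at 0.91 against 2.01 (-1.10). The last of these no longer passed 1 when the cell with the most antiviral genes was left out of each class (-0.93) or after centring (-0.57). Irgm1 was at 1.20 against 3.04 (-1.84) and Trim25 at 0.36 against 2.01 (-1.66). Higher in Postn-traced cells were Bst2 at 2.13 (SD 3.19) against 0.00 (2.13) and Ifi35, a partner of the factor Nmi, at 2.87 (SD 3.46) against 1.08 (1.79). The differences of Irf1, Irgm1, Ifi203, Trim25, Ifi204, Bst2 and Ifi35 were smaller than 1 SD between the cells of at least 1 class, and none of the 15 antiviral genes passed 1, while after centring Ifit1 (1.28), Oas1a (1.26), Ifi44 (1.22) and Isg15 (1.11) did. Before centring, Ifitm2 at 11.04 against 10.53, Ifitm3 at 10.88 against 11.43 and Ifi27 at 5.57 against 5.95 did not pass 1 either. After centring Ifitm2 did.

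Tcf21-traced and untraced Postn-positive cells shared the Tcf21 tracer capture. Members passed 1 in 3 cases, 1 higher and 2 lower, where 3.34% of all genes were higher, 5.05% lower and 8.4% either. Ifi204 was at 2.47 (SD 3.21) in 44 Tcf21-traced against 1.26 (SD 2.61) in 19 untraced cells (1.21), Irf1 at 2.72 (SD 3.28) against 3.81 (SD 3.55) (-1.09) and Gbp3 at 0.35 (SD 1.33) against 1.36 (SD 2.34) (-1.01). Irf1 and Gbp3 no longer passed 1 without the cell with the most antiviral genes of each class (-0.94 and -0.73), while Ifi35 (1.16) newly did, and Ifi204 not after centring (0.95), where the split was 0 higher and 4 lower and 11.002% of all genes passed 1. Of the antiviral genes 12 of 15 lay below 0 and 1 above, with a median of -0.44, which was -0.15 without untraced Postn-positive cell 15 alone. Ifitm2 at 11.05 against 10.43, Ifitm3 at 10.92 against 10.82, Ifi27 at 6.63 against 5.88 and Ifi205 at 4.41 against 5.10 differed by less than 1.

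The resident classes of uninjured hearts compare traced with other CD31- CD45- cells without injury. Members were higher in 3 and lower in 8 cases in resident Tcf21-traced cells, where 8.65% of all genes were higher, 6.55% lower and 15.2% either. Lower were Ddx58 at 0.70 against 2.60 (-1.90), Irf1 at 4.57 against 6.09 (-1.52), Ifi203 at 1.08 against 2.60 (-1.52), Oasl2 at 0.61 against 2.09 (-1.48), Igtp at 0.19 against 1.41 (-1.22), Psmb9 at 0.32 against 1.49 (-1.17), Psmb8 at 0.82 against 1.94 (-1.12) and Ifih1 at 0.00 against 1.03 (-1.03). Irf9 at 2.68 against 1.16 (1.51), Ifi27 at 8.34 against 7.02 (1.32) and Tap1 at 1.03 against 0.00 (1.03) were higher.

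These resident differences rested on few cells. Of the 12 resident CD31- CD45- cells, 2 held Ifih1, 2 Igtp and 2 Psmb9. Without the cell with the myeloid markers 8 members passed 1, and Ifi27, Psmb8, Psmb9 and Igtp no longer did while Gbp2 did at -1.03. Without the cell with the most antiviral genes of each class, Oasl2, Ifih1 (-0.94), Ifi203 (-0.95) and Ifi27 (0.53) did not pass 1 and Gbp3 (-1.19) newly did. Ifitm2 at 11.08 against 10.69, Ifitm3 at 11.61 against 10.75 and Ifi205 at 6.18 against 5.96 stayed under 1, and without the cell with the myeloid markers the sign of Ifitm3 (0.86 to -0.12) and Ifi205 (0.22 to -0.32) turned.

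Activated against resident Tcf21-traced cells follow the same tracer from the uninjured to the infarcted heart, across 2 captures. Members were higher in 2 and lower in 5 cases, where 16.9% of all genes were higher, 2.65% lower and 19.5% either. Irf1 was at 2.72 (SD 3.28) in activated and 4.57 (SD 4.32) in resident cells (-1.85), Ifi205 at 4.41 (SD 4.14) against 6.18 (SD 4.05) (-1.77), Ifi27 at 6.63 against 8.34 (-1.71), Irf9 at 1.33 against 2.68 (-1.35) and Usp18 at 0.37 against 1.72 (-1.35). Ifi204 at 2.47 against 0.85 (1.62) and Psmb8 at 2.22 against 0.82 (1.41) were higher. From means of TPM on the linear scale, the direction of Ifi204 turned (-0.82) and Psmb8 was at 0.92. From medians over cells both were at 0.00. For all 7 members the SD between cells, in both classes, exceeded the difference.

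The median member differed by 0.06 and the median gene by 0.16, and against genes detected in at least 10% of cells, with a median of 0.62, the median member lay 0.55 below and 7 of 39 above the median gene. After centring, 9 members were higher and 3 lower, where 30.6% of all genes passed 1, the median member was at 0.51 and the median gene at 0.61, and Usp18 (-0.91) and Irf9 (-0.90) no longer passed 1. Usp18 also fell under 1 without the cell with the most antiviral genes (-0.91). Ifitm2 at 11.05 against 11.08 and Ifitm3 at 10.92 against 11.61 did not pass 1.

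Scar cells against Tcf21-traced cells compare untraced cells of the scar with the traced lineage, again across 2 captures. Here 5 members were higher and 4 lower, where 1.11% of all genes were higher, 13.2% lower and 14.3% either. The median member differed by 0.43 and the median gene by -0.12. After centring the median member was at -0.41 and the median gene at -0.95, so the sign of the members' median flipped. Relative to the median gene, a measure that centring cannot move, the median member lay 0.54 above it, with 32 of 39 members above it. The 15 antiviral genes had a median difference of 0.62, 14 of them above 0, and after centring -0.21 with 3 above 0. All 15 lay above the median gene, a count that centring cannot change. This count includes Mx1, detected in no infarct cell and at a difference of 0.00. A gene hardly detected in both classes lies near 0.00 and so above a median gene of -0.12, so the count shows no shared shift.

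The higher members were 3 GTPases and 2 others. Gbp7 was at 3.17 (SD 3.25) in 29 scar and 0.91 (SD 2.02) in 44 Tcf21-traced cells (2.26), Gbp3 at 1.99 (SD 3.03) against 0.35 (SD 1.33) (1.64), Irf1 at 4.20 (SD 4.38) against 2.72 (SD 3.28) (1.48), Usp18 at 1.77 (SD 3.17) against 0.37 (SD 1.58) (1.40) and Gbp2 at 2.93 (SD 3.95) against 1.64 (SD 2.96) (1.29). After centring Gbp7 alone of these passed 1 (1.42) and the split was 1 higher and 6 lower, where 45.5% of all genes passed 1, with Gbp3 at 0.81, Irf1 at 0.65, Usp18 at 0.56 and Gbp2 at 0.45. Relative to the median gene all 5 lay more than 1 above it, from 1.41 for Gbp2 to 2.37 for Gbp7. Centring cannot move this measure, so it is no further check on the calls lost after centring. From medians over cells, Irf1 was at 3.41 and Gbp7 at 2.78, while Gbp3, Usp18 and Gbp2 were at 0.00.

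The lower members in the scar were widely detected ones. Ifitm2 was at 7.80 (SD 4.71) against 11.05 (SD 1.12) (-3.25), Ifitm3 at 8.18 (SD 4.93) against 10.92 (SD 1.28) (-2.74), Ifi27 at 4.84 (SD 4.29) against 6.63 (SD 3.93) (-1.79) and Ifi205 at 3.09 (SD 4.41) against 4.41 (SD 4.14) (-1.33). From means of TPM on the linear scale, the direction of Ifi205 turned (0.05), and Ifitm2 was at -0.91, Ifitm3 at -0.26 and Ifi27 at -0.30. The scar medians of Ifitm2 and Ifitm3, 10.31 and 11.03, were near those of the Tcf21-traced cells, 11.20 and 11.16, and each was listed at 0 in 7 scar cells. Without the 6 scar cells with few genes, the differences were -1.47 for Ifitm2, -0.61 for Ifitm3, -1.08 for Ifi27 and -0.52 for Ifi205, and 13 members were higher and 2 lower, where 10.5% of all genes passed 1. The size of the Ifitm2 and Ifitm3 differences thus depended on cells with few genes of any kind. Gbp7, Gbp3, Irf1, Usp18 and Gbp2 stayed past 1 without those cells. Leaving them out also moved the median gene from -0.12 to -0.01, towards the scar. Calls higher in the scar could therefore hardly be lost by this step, and it is no check on them.

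Postn-negative cells of the infarct against resident CD31- CD45- cells compare unmarked cells with and without injury, across 2 captures. Here 7 members were higher and 2 lower, where 10.3% of all genes were higher, 5.2% lower and 15.5% either. Ifi205 was at 8.93 (SD 3.30) in 24 Postn-negative and 5.96 (SD 4.35) in 12 resident cells (2.97), Irf7 at 2.45 (SD 3.47) against 0.36 (SD 1.26) (2.09), Irgm1 at 3.04 (SD 3.99) against 0.95 (SD 2.32) (2.09) and Trim25 at 2.01 (SD 3.10) against 0.19 (SD 0.67) (1.82). Rtp4 at 1.88 against 0.69 (1.19), Stat2 at 1.99 against 0.94 (1.05) and Ifit3 at 1.08 against 0.08 (1.01) followed, while Irf1 at 4.80 against 6.09 (-1.29) and Ifi27 at 5.95 against 7.02 (-1.07) were lower. Centring moved the median gene only from 0.00 to 0.04 here and shifts all genes alike, so it could not turn these directions.

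Of the 24 Postn-negative cells 8 held Irf7 and 8 held Trim25, against 1 and 0 of the 12 resident cells. Without the cell with the most antiviral genes of each class Ifit3 (0.56) and Rtp4 (0.89) no longer passed 1 and Xaf1 (1.58), Ifi203 (1.07) and Igtp (-1.11) newly did, and without the cell with the myeloid markers 6 members were higher and 2 lower, with Stat2 at 0.96, Ifi27 at -1.71 and Ifi205 at 2.42. Ifitm2 at 10.53 against 10.69 and Ifitm3 at 11.43 against 10.75 did not pass 1, and without that cell the sign of Ifitm3 turned (0.68 to -0.30). This comparison and that of Postn-traced with Postn-negative cells share the Postn-negative cells, in which Ifi205, Irgm1 and Trim25 were high in both.

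**Figure D5:**
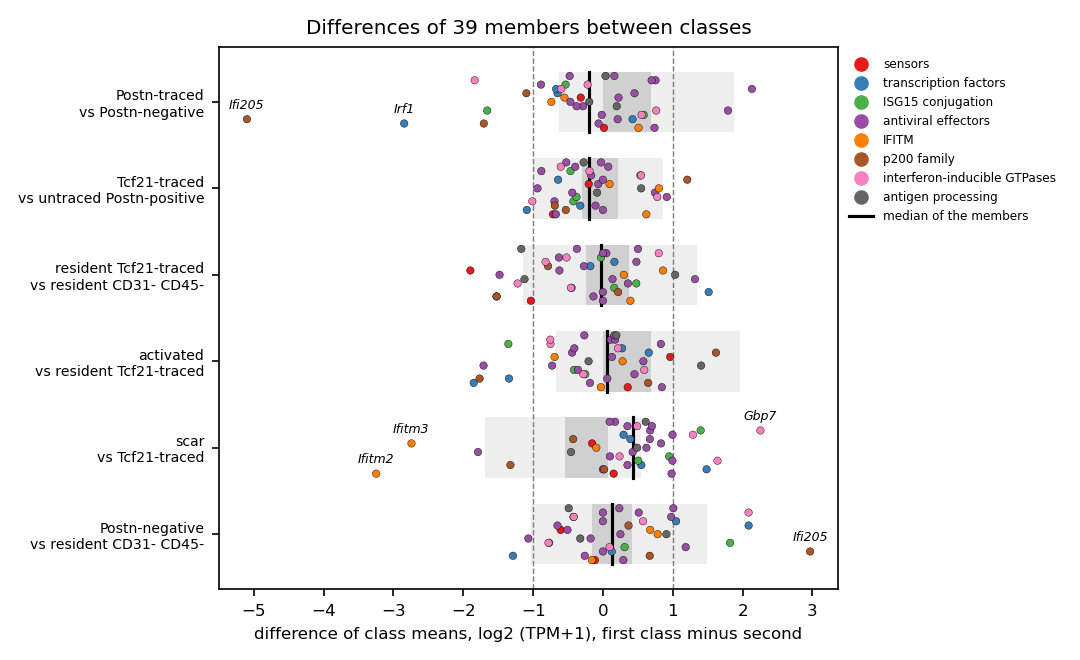
Difference of class means of log2 (TPM+1) for each of the 39 members (points, coloured by role) in 6 comparisons, over the range of all 15733 genes (light band 5th to 95th percentile, dark band 25th to 75th). Members lie on both sides of 0 in each comparison, with Ifi205 at -5.10 between Postn-traced and Postn-negative cells and Ifitm2 and Ifitm3 lowest in the scar.

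Across the infarct cells, the antiviral genes varied together weakly. The Pearson r between an antiviral gene and the mean of the others, over cells centred on their capture, had a median of 0.40 and was highest for Rtp4 (0.51), and the median was 0.29 without the 3 highest cells. Mx1, detected in no infarct cell, has no usable r, and the r of Rsad2 (0.50) rests on 4 cells, 3 of which are the highest cells. Oasl2, detected in 41 infarct cells, had 0.50 with and without those cells, and Rtp4 0.51 and 0.46. Others fell further without them: Ifit3 from 0.49 to 0.25, Usp18 from 0.39 to 0.18, Isg15 from 0.35 to 0.12 and Ifit2 from 0.37 to -0.07. Of the members outside the antiviral genes, Gbp3 (0.51), Ifi203 (0.46), Gbp2 (0.44) and Irf9 (0.44) followed the antiviral mean most closely, while of the widely detected members Ifitm3 had 0.36, Ifitm2 0.25, Ifi27 0.19, Irf1 0.17 and Ifi205 0.17. These cells share libraries and depth, and the number of genes per cell itself had an r of 0.34 with the antiviral mean.

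Of 7977 other genes detected in at least 10% of infarct cells, those most like the antiviral mean were Gvin1 (r 0.56), Trim30a (0.52), Plscr2 (0.46), Ptpn13 (0.43), Phf11d (0.42), Sp100 (0.41), Mndal (0.40), Sp110 (0.40), Iigp1 (0.40) and Mitd1 (0.39). The median r of all 7977 was 0.08. Without the 3 cells with the highest mean, the same 10 genes had r between 0.34 (Sp110) and 0.45 (Trim30a). Gvin1 and Iigp1 encode interferon-inducible GTPases, Sp100 and Sp110 nuclear body proteins, and Mndal is a p200 gene.

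The rest of the interferon pathway was listed for 38 of 42 further genes, and Ifnb1, Ifna4, Ifnl2 and Ccl5 were not analysed here. Of the ligands, Ifng was detected in the single cell described above. Among the receptors only Ifngr1 was detected in most cells, 122 infarct and 26 uninjured. Ifngr2 was detected in 72 and 9, Ifnar1 in 63 and 11, Ifnar2 in 59 and 12 and Il10rb in 35 and 8. Each receptor other than Ifngr1 was thus found in a minority of the infarct and of the uninjured cells. The kinase Jak1 was detected in 135 infarct cells, Jak2 in 37 and Tyk2 in 12, and the factor Stat3 in 110. Ifngr1, Ifngr2, Ifnar1 and Ifnar2 were thus each detected in more infarct cells than any antiviral gene, of which Xaf1 reached 47.

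Among the class I genes, B2m was detected in 148 infarct cells, H2-D1 in 137, H2-K1 in 120 and Tapbp in 116, and Nlrc5, the class I transactivator, in none. Of the upstream sensors and adaptors, Myd88 was detected in 53 infarct cells, Tmem173, the adaptor Sting, in 36, Tbk1 in 23, Tlr3 in 16, Mavs in 13 and Mb21d1, the DNA sensor cGas, in 8. Tmem173 was detected in 1 uninjured cell. Pathway genes followed the antiviral mean weakly, with a median r of 0.20 over the 26 detected in at least 10% of infarct cells. This was above the 0.08 over all 7977 genes ranked and below the 0.34 of genes per cell. Of the 26, 4 were among the first 100 genes ranked. Values ran down to -0.10 for Cxcl10, and among the closest were Psmb10 (0.32), Ly6e (0.31) and B2m (0.28).

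Between classes, the 38 pathway genes moved in both directions. In Postn-traced against Postn-negative cells 8 were higher and 4 lower, where 16.7% and 2.35% of all genes were, with Psme2 (2.39) highest and H2-D1 at 7.58 against 10.89 (-3.31) and Socs3, the feedback inhibitor, at 2.04 against 4.17 (-2.13) lowest. In Tcf21-traced against untraced Postn-positive cells 1 was higher and 3 lower (all genes 3.34% and 5.05%), led by Ifnar2 (-1.70), and between the resident classes 4 were higher and 3 lower (8.65% and 6.55%), led by Stat3 (3.18). In activated against resident Tcf21-traced cells 5 were higher and 4 lower (16.9% and 2.65%), with Tmem173 at 1.74 against 0.09 (1.65) and Socs3 at 2.08 against 4.30 (-2.22). In scar against Tcf21-traced cells 2 were higher, Ifnar2 (1.44) and Il10rb (1.06), and 4 lower, led by Jak1 (-1.69), where 1.11% and 13.2% of all genes were. In Postn-negative against resident CD31- CD45- cells 5 were higher and 4 lower (10.3% and 5.2%), with H2-D1 at 10.89 (SD 0.90) against 7.08 (SD 3.36) (3.80) and Stat3 (2.21) highest.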

How the data were processed

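The table deposited by the authors gives 17171 genes in 185 cells as log2 (TPM+1). Submitters' processing notes name Bowtie 1.0.0, eXpress 1.5.1 and mm10; the annotation is not given in the sources used here. Cells were SMARTer amplified, tagmented and sequenced. Values under 1e-06 were read as 0, and 3 columns without a sample were not used. No 2 cells were identical.

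Class and capture came from the labels. Detection was above 5 TPM, the pseudocount was 1, and counts past 1 log2 unit used the 15733 genes detected in at least 1 cell. Low cells had under 50% of the median genes of their capture. Genes with values in full were those past 1 log2 unit or detected in at least 50% of cells of either class, the 10 most like the antiviral mean and the pathway list, of which an item is not reported here. Members and lists were chosen with earlier results of these data known. Promoter windows were RefSeq GRCm38.p6. The 8 marker lists named 6 genes each, of which Cdh5, Adgre1, Cd3e, Cd3g, Ms4a1 and Trac were not analysed here; at least 3 were detected in 180 cells for fibroblast, 0 for endothelial and lymphocyte, 1 for myeloid, 6 for pericyte, 21 for smooth muscle, 2 for cardiomyocyte and 1 for epicardial. Alternatives changed the mean, pseudocount, centring, minimum and cells. Difference code was tested on simulated data. Versions: Matplotlib 3.10.9, SciPy 1.17.1, NumPy 2.4.6, Python 3.11.15, pandas 2.3.3.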

Additional observations from a re-analysis of the deposited data

How the results depend on the processing

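The median difference of the members stayed within 1 SD between cells of the reported value under all 50 alternatives, a bound that a median over 39 genes can hardly leave and that shows no stability, and centring changed its sign in 3 of the 6 comparisons. Counts of members past 1 log2 unit kept within 1.5 times the reported count in 36 of 56 alternatives. Some of these could not change, since leaving out low cells removed no cell in 5 comparisons and leaving out the 3 cells with the most antiviral genes removed none in 3. In the order Postn-traced against Postn-negative, Tcf21-traced against untraced Postn-positive, resident classes, activated against resident Tcf21-traced, scar against Tcf21-traced and Postn-negative against resident, the reported counts were 8, 3, 11, 7, 9 and 9. Means of TPM on the linear scale, which single high cells lead, gave 21, 14, 21, 23, 18 and 25. Medians over cells gave 4 in the first comparison, 3 between the resident classes, 3 for activated against resident, 4 for the scar and 3 for the last. A pseudocount of 0.1 gave 11 for Tcf21-traced against untraced, 11 for activated against resident and 17 for the scar, and a pseudocount of 5 gave 0 for Tcf21-traced against untraced, 5 for the resident classes and 4 for the last. Centring cells on their own genes gave 14 in the first comparison and 12 for activated against resident, and leaving out low cells gave 15 for the scar. The causes were not tested beyond the construction of each setting.

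The 19 cells with at least 5 antiviral genes became 37 at 3 genes and 4 at 8 genes. The top 5% of infarct cells held a median of 74.9% of a member's summed level, against 93.8% for the top 10%. Leaving out the 3 cells with the most antiviral genes, and the cell with the myeloid markers, was chosen after seeing the data. No paired analysis was possible because replicate numbers only name cells and the results come from no test. Depth per cell is not known, a missing value can be a failed measurement, and with 1 sample per class no difference could be set against the spread between mice.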
